A study of Homo sapiens with 3 samples.

Results

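The transcripts described here were those of 34 kinetochore and centromere genes, out of 33538 genes counted, listed by name as genes whose products are known to work at the centromere or to bear a CENP name. Of the 34, 33 passed the filter on low values, a mean of at least 5 CPM (UMIs of a gene per 1000000 UMIs) over the 4 populations of Mix2. CENPI was the exception, with 4.42 CPM in cells that were never irradiated and 2.14 to 4.23 CPM in the other Mix2 populations.

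The study used HCT116, a colorectal cancer cell line labelled p53plus, to follow cells that outlive radiation. In the library Mix1, giant cells were isolated 5 or 8 days after 8 Gy and grown on until day 10 or 11, and cells of all 4 combinations of days were pooled. In the library Mix2, 10000 cells irradiated and isolated in the same way (IR, hashtag antibody 8) were loaded with others. These were 1000 cells that received 0 Gy (NC, hashtag antibody 6) and 1000 cells regrown after 8 Gy (R, hashtag antibody 7). By the paper, R cells were taken later after irradiation than IR cells. The IR cells of Mix2 were divided by their tag8 count into strong IR, with at least 3160 tag8 UMIs, and weak IR, with 500 to 3159. All cells came from a single line, each population was 1 sample, and the days within IR and Mix1 carried no mark of their own, so no difference between populations could be tested and none had a replicate.

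The kinetochore is the protein plate on each centromere through which a chromosome is held by spindle microtubules. Its base is the histone variant CENP-A, which HJURP and the Mis18 complex put in place. On that base lies the inner kinetochore, or CCAN, which stays at the centromere all through the cell cycle. The Mis12 and Ndc80 complexes, the Ska complex and the corona proteins CENP-E and CENP-F form the outer layers that reach the microtubule in mitosis. Many of these genes are known to be transcribed mostly in G2 and mitosis, while others are made in all phases.

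After cells with under 200 genes or with 10% or more mitochondrial UMIs were set aside, NC held 810 cells and 6104377 UMIs, R held 633 cells and 4731705 UMIs, weak IR held 6322 cells and 46991674 UMIs, strong IR held 2216 cells and 27127545 UMIs, and Mix1 held 15630 cells and 150680612 UMIs. Median depth per cell was 6933 to 7216 UMIs in NC, R and weak IR, 8995.5 in Mix1 and 11861.5 in strong IR. All 5 epithelial markers reached 5 CPM in every population, and none of the fibroblast, immune, endothelial or erythroid markers did. CDKN1A, the p53-induced inhibitor of cyclin-dependent kinases, stood at 180 CPM in NC, 255 in R, 265 in weak IR, 918 in strong IR and 630 in Mix1. MKI67, a marker of proliferating cells, stood at 334, 317, 288, 126 and 164 CPM in the same order. In CDKN1A weak IR lay close to R but above NC, at a ratio of 1.47 (95% interval for counting error 1.38 to 1.56). Weak IR cells had a median of 1323 tag8 UMIs per cell against 7438.5 in strong IR and 121 in NC and in R. The 2 libraries shared 59 cell barcodes, of which 46 lay among the cells kept.

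The first question was which members follow the cell cycle in cells that divide freely. For this, cells of at least 3000 UMIs were thinned to 3000 UMIs each and scored by 30 genes of G2 and M phase and by 30 genes of S phase, none of them a member. Cells with 19 or more G2/M UMIs, the 75th percentile of NC, were called G2/M-high. Of the rest, those with 12 or more S UMIs were called S-high. Cells under the NC medians of both indices, 13 and 10 UMIs, were called low. A member was called bound to the cycle when 1 of the 2 high classes exceeded the low class at least 1.5-fold in both NC and R with both intervals above 1, and constitutive when it stayed under 1.5-fold in both classes of both populations. These are ranges of an index and not cell types: 9.49% of NC cells lay within 1 UMI of the G2/M limit.

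By this rule 12 members were bound, 9 were constitutive and 12 were unresolved. Over all 9284 genes measured, 2.13% were bound, 67.6% were constitutive and 30.3% were unresolved. The first 10 of the bound genes followed the G2/M index: CENPA and its chaperone HJURP, CENPC, which ties the CENP-A nucleosome to the outer kinetochore, NDC80, NUF2 and SPC25 of the Ndc80 complex, SKA1 and SKA3 of the Ska complex, and CENPE and CENPF of the corona. The inner subunit CENPK and ZWINT, a partner of the KNL1 scaffold, passed the rule in S-high and not in G2/M-high cells. The constitutive members were the inner subunits CENPH, CENPN, CENPP, CENPU and CENPX, the Mis12 complex subunits MIS12, NSL1 and PMF1, and SKA2. The Ska complex and the inner kinetochore were thus split between groups, whereas no subunit of the Mis12 complex was bound and no subunit of the Ndc80 complex was constitutive. A constitutive call did not mean a flat level, and the rule asked nothing of its intervals. CENPP, with 10 UMIs in low NC and 9 in low R cells, had S-high intervals of 0.455 to 2.77 and 0.408 to 3.89. For members with so few counts the call does not show that the level is the same in all classes. SKA2 lay just under the limit, at S-high and G2/M-high ratios of 1.48 and 1.46 in NC and 1.44 and 1.46 in R. Every interval of these SKA2 ratios lay above 1. CENPX reached 1.48 (1.29 to 1.70) in the S-high cells of R.

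NDC80, the subunit of the Ndc80 complex that binds microtubules, counted 20.3 CPM in low and 96.3 CPM in G2/M-high NC cells, a ratio of 4.74 (95% interval 3.06 to 7.67), and 4.63 in R (2.91 to 7.72). CENPF, a large coiled-coil protein of the corona, rested on more UMIs and went from 200 to 715 CPM in NC, a ratio of 3.58 (3.11 to 4.14), and from 185 to 712 CPM in R, a ratio of 3.86 (3.34 to 4.48). CENPA, the histone itself, went from 15.9 to 55.6 CPM in NC, a ratio of 3.49 (2.11 to 6.12), and had a ratio of 5.08 (3.04 to 9.01) in R. Its ratio in S-high cells was 0.961 in NC and 0.877 in R, so that its higher level lay in the G2/M-high cells of both. SPC25 was the weakest of the Ndc80 subunits called bound, at 1.70 (1.35 to 2.17) in NC and 2.42 (1.85 to 3.19) in R. CENPK had its higher ratios in S-high cells, 1.65 (1.05 to 2.67) in NC and 2.76 (1.62 to 4.79) in R. ZWINT had 1.56 and 1.57 there. Their ratios in G2/M-high cells were not far lower, at 1.53 in NC and 2.07 in R for CENPK and 1.44 and 1.37 for ZWINT. All intervals in this text cover counting error only.

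The same limits gave another answer in Mix1 and strong IR. They were first asked of Mix1 alone and not of a pair of populations. Low cells held 86615638 UMIs in Mix1 against 1131457 in NC and 1191822 in R, so that intervals were narrower in Mix1. The part of either difference in the count was not tested. Within Mix1, 32 of the 33 measured members were bound, all but CENPB, beside 21.5% of all genes. The constitutive members took part: CENPU, an inner subunit, ran at 16.3 CPM in low, 59.4 in S-high and 44.3 in G2/M-high Mix1 cells, where its ratios over low cells were 3.65 (3.37 to 3.95) and 2.72 (2.48 to 2.99), against 1.34 and 1.12 in NC. In strong IR its S-high ratio was 4.50 (3.37 to 5.94). In weak IR its ratios were 1.42 in S-high and 1.26 in G2/M-high cells. Over the 33 members, median G2/M-high and S-high ratios were 1.70 and 1.38 in weak IR. These lay nearer to NC (1.52 and 1.26) and R (1.57 and 1.44) than to strong IR (2.81 and 2.68) and Mix1 (2.86 and 2.67). CENPF reached 7.49 in the G2/M-high cells of Mix1 and 8.48 in those of strong IR, and CENPE, the kinesin of the corona, reached 9.33 and 10.5. When a member had to be bound in Mix1, strong IR and weak IR alike, 24 were, beside 4.29% of all genes.

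The low cells were not alike in the populations, and this bears on both readings. Their mean G2/M index was 7.39 UMIs in NC and 6.02 in R but 3.52 in strong IR and 3.68 in Mix1, and their mean S index was 6.46, 5.59, 3.0 and 3.43. A low cell of an irradiated population therefore held fewer index transcripts than a low cell of NC. CENPX, a histone-fold subunit that also serves the Fanconi pathway, had G2/M-high ratios of 0.831 in NC, 1.10 in strong IR and 1.25 in Mix1. Its S-high ratios were higher, 1.49 (1.39 to 1.60) in strong IR and 1.52 (1.49 to 1.55) in Mix1, the last just past the limit for a bound call. CENPB, which binds the CENP-B box of alpha satellite DNA, had 0.842 and 1.06 in the G2/M-high and 1.01 and 1.11 in the S-high cells of strong IR and Mix1. CENPT was past 1.5 in the G2/M-high cells of both but at 1.18 and 1.32 in their S-high cells. CENPB was not level in NC, where 11 UMIs lay in low cells. Its ratios there were 2.29 (1.12 to 5.03) in S-high and 2.40 (1.22 to 5.14) in G2/M-high cells. In R they were 1.22 and 1.36, so that it was unresolved.

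**Figure D1:**
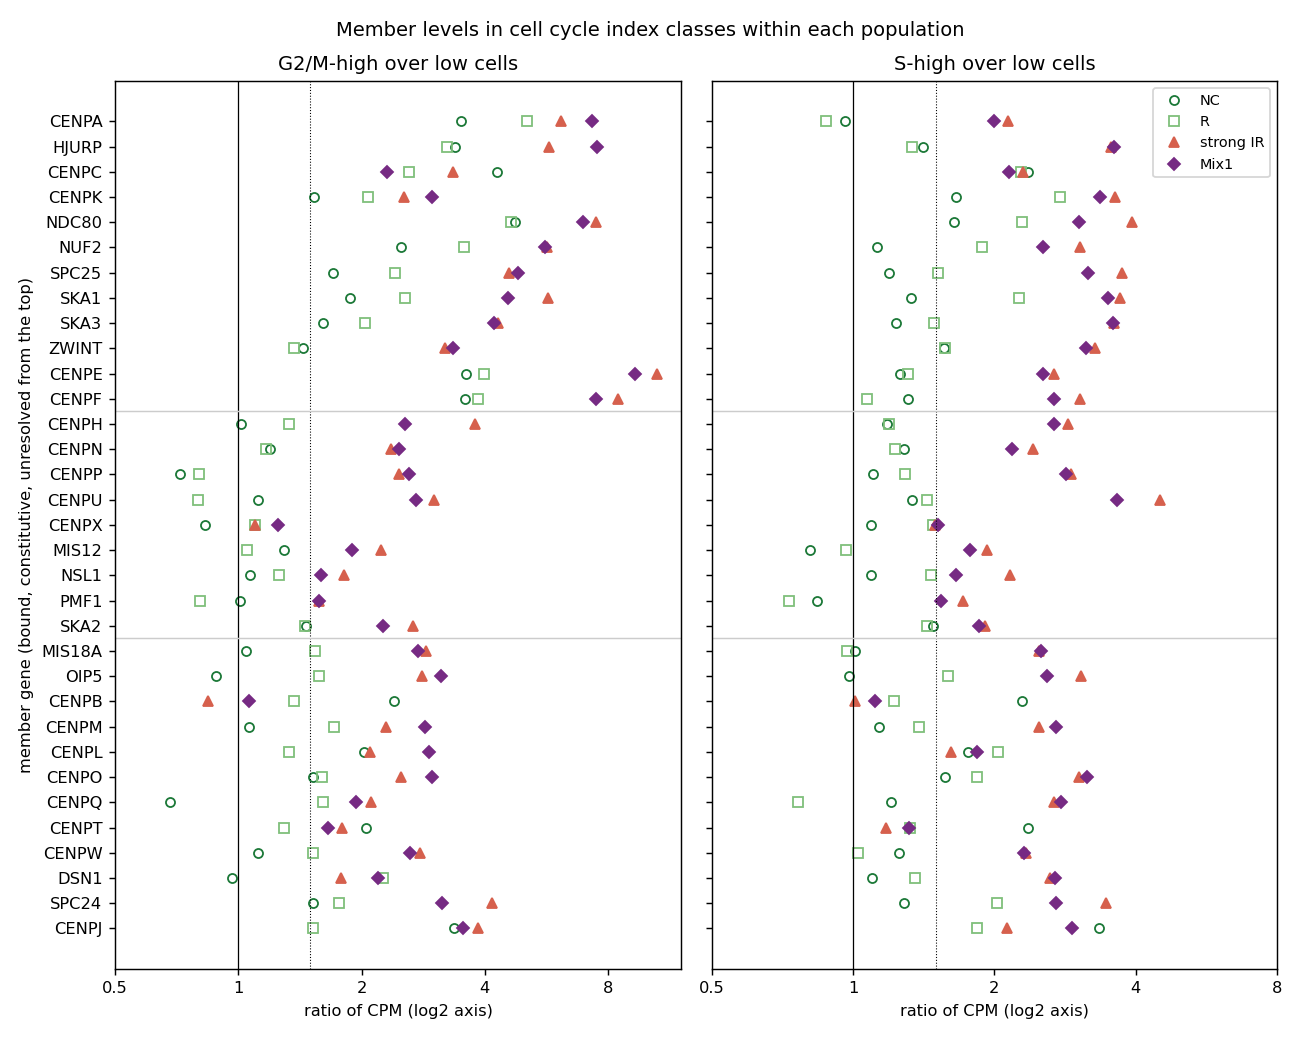
Ratio of CPM in G2/M-high (left) or S-high (right) cells over low cells for the 33 measured members, on log2 axes, in NC, R, strong IR and Mix1; the dotted line marks 1.5-fold and the grey lines part the bound, constitutive and unresolved members. The open symbols of NC and R lie between 0.719 and 1.48 for the constitutive members, with those of SKA2 near the dotted line in both panels. The filled symbols of strong IR and Mix1 lie beyond 1.5 for most members. The exceptions are CENPB in both panels, CENPX in the left panel and at 1.49 for strong IR in the right, and CENPT in the right panel.

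Promoter sequences are shown because 10 of the 12 bound members followed the G2/M index. RefSeq gave a promoter, 250 bases before to 50 after the start in GRCh38.p14, for 29 of the 34 members; CENPL, CENPM, CENPH, CENPJ and MIS18A had none in the table. TTTGAA, the core of the cell cycle genes homology region known from many genes of G2 and M phase, was searched on both strands. It lay in the promoters of 10 of 12 bound members, of 1 of 8 constitutive members and of 1 of 8 unresolved members, and in 15.2% of all 35116 promoters or, by gene, 18.2% of the 27305 genes. TTTAAA, which cannot overlap TTTGAA and reads the same on both strands, lay in 3 bound members (CENPA, CENPE and CENPF) and 12.2% of all promoters. CENPK was the only bound member with neither, and ZWINT, the other bound member called in S-high cells, held TTTGAA. The windows below hold 30 bases with the match in capitals, written 5′ to 3′ in the direction of the gene; TTCAAA is TTTGAA on the other strand. The first 10 are from bound members and the last is from the constitutive member with a match, CENPN.
CENPA, chr2:26786026-26786055, plus strand: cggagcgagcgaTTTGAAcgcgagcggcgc
HJURP, chr2:233854629-233854658, minus strand: gacgcaaatttgTTTGAAaggcccaatcag
SPC25, chr2:168890416-168890445, minus strand: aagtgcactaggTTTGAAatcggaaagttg
NUF2, chr1:163321958-163321987, plus strand: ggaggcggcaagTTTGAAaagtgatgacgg
NDC80, chr18:2571542-2571571, plus strand: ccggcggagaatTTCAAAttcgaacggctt
SKA3, chr13:21176538-21176567, minus strand: ccggcgccgagaTTCAAActagtggcggga
CENPC, chr4:67545576-67545605, minus strand: tgtgtctccgggTTCAAAcccaggcacagg
ZWINT, chr10:56361273-56361302, minus strand: gtcgactgtgacTTCAAAgtaatcttaggg
CENPF, chr1:214603068-214603097, plus strand: agagggcttgttTTTAAAatccatccgaaa
CENPE, chr4:103198394-103198423, minus strand: cgtttgggaaatTTTAAAtttaaaggcggg
CENPN, chr16:81007205-81007234, plus strand: gcaattggtggcTTTGAAggcgcggcgagc

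The first base of the match was 18 bases before the start in CENPA, and 3 before it in SPC25, NDC80 and SKA3. SPC25 held another, 247 bases before the start. ZWINT had 1 match in both of the promoters listed for it, 31 bases before one start and 17 before the other. The match lay 17 bases after the start in NUF2 and 4 after it in CENPN. HJURP and CENPC held theirs farther out, at 111 and 90 bases. CENPF had TTTGAA 41 bases after the start and SKA1 35 after it, and both lie too near the end of the sequence for a full window. A match is a description of the letters, and nothing was measured at these sites.

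Unlike the promoters above, that of CENPX held no TTTGAA or TTTAAA. It held 5 copies of ATTGG, which is CCAAT on the other strand and the core of the box known to be bound by NF-Y. They began 235, 184, 133, 84 and 37 bases before the start. Such repeats were not particular to CENPX. SKA2 held CCAAT 219, 191, 116, 85 and 53 bases before its start. The bound member HJURP held it, on either strand, at 169, 139, 101 and 72. CCAAT on either strand lay in 34.6% of all promoters or, by gene, 39.7% of all genes. It lay in 7 of 12 bound, 7 of 8 constitutive and 4 of 8 unresolved members. The 250 bases before the CENPX start follow, with ATTGG in capitals.
CENPX, chr17:82022879-82023128, minus strand: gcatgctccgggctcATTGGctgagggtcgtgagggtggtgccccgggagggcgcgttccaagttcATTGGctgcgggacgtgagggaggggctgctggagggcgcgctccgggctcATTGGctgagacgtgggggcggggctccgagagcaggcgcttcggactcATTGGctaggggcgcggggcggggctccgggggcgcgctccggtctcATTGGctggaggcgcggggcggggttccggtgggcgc

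The main comparison set strong IR beside NC within Mix2. Of the 33 measured members 30 were lower by at least 1.5-fold in strong IR and none was higher, beside 14.6% of all measured genes lower and 10.1% higher. The median ratio of the members was 0.482, against 0.936 over all genes. Strong and weak IR were loaded as 1 tagged sample, and with both pooled, an alternative chosen after seeing the data, 6 members were lower than NC. Summed over the 34 members the level was 2216 CPM in NC, 2103 in R, 1984 in weak IR, 1245 in strong IR and 1461 in Mix1. Fewer cells with a transcript and less transcript per cell cannot be told apart in such sums. The exceptions were CENPB, CENPX and CENPT.

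**Figure D2:**
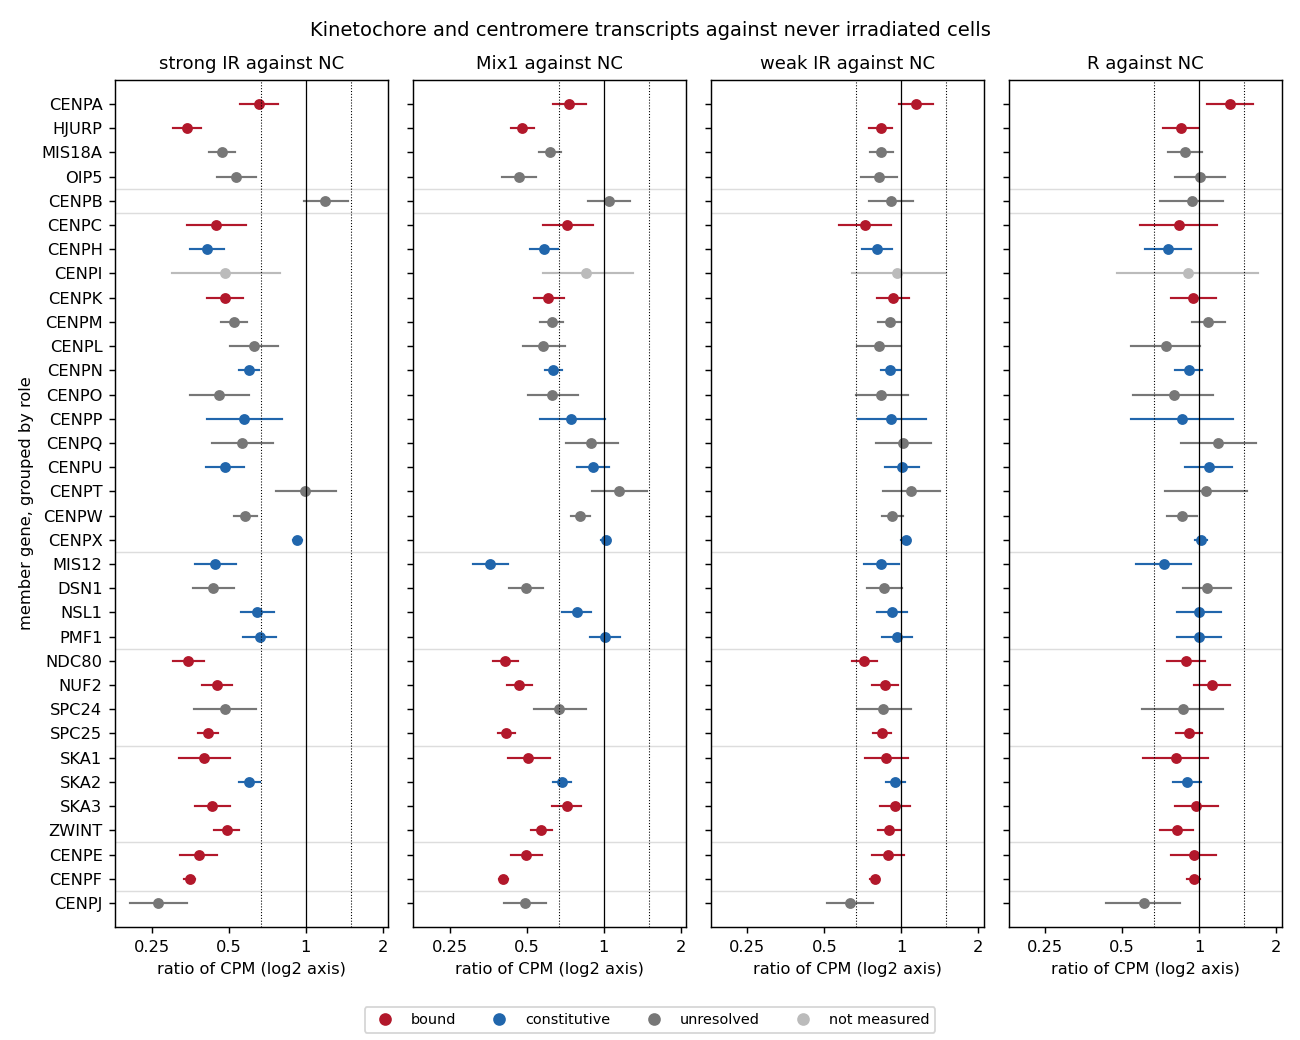
Ratio of CPM for each member in 4 comparisons with NC, on log2 axes, with 95% intervals for counting error; dotted lines mark 1.5-fold either way and colours the bound, constitutive, unresolved and not measured members. In strong IR all but CENPB, CENPT and CENPX lie left of the first dotted line, in Mix1 fewer do, and in weak IR and R CENPJ alone does.

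Among the genes of the CENP-A nucleosome, all 4 were lower in strong IR. HJURP, the CENP-A chaperone on chromosome 2 (233833416 to 233854566, GRCh38), counted 69.6 CPM in NC, 59.0 in R, 57.8 in weak IR, 23.9 in strong IR and 33.5 in Mix1. Its ratio of strong IR to NC was 0.343 (0.303 to 0.388). CENPA, on chromosome 2 (26764289 to 26801067), counted 30.6, 40.6, 34.9, 20.1 and 22.5 CPM in the same order. The ratio for strong IR was 0.655 (0.553 to 0.777), the highest of the bound members, and R stood above NC at 1.32 (1.08 to 1.63), the only member whose interval for R lay above 1. The Mis18 subunits MIS18A and OIP5 had ratios of 0.469 and 0.535 in strong IR.

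CENPB was the one member above NC in strong IR, at 23.4 against 19.7 CPM, and its interval held equality (1.19, 0.980 to 1.46). It counted 18.4 CPM in R, 17.9 in weak IR and 20.6 in Mix1, so that strong IR was the highest of the 5. Against weak IR its ratio was 1.31 (1.18 to 1.46). The gene lies on chromosome 20 (3783851 to 3786740).

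In the inner kinetochore, 11 of the 13 measured genes were lower in strong IR, with a median ratio of 0.564. CENPH, of the CENP-H/I/K/M group, had the lowest ratio there, 0.410 (0.352 to 0.479), from 42.4 CPM in NC, 32.1 in R, 33.9 in weak IR, 17.4 in strong IR and 24.7 in Mix1. CENPK of the same group counted 37.8, 35.9, 35.0, 18.3 and 23.0 CPM. CENPN, which reads the CENP-A nucleosome, counted 106, 96.8, 96.2, 63.6 and 67.6 CPM and had a ratio of 0.599 (0.547 to 0.657). For CENPK and CENPN, NC, R and weak IR lay apart from strong IR and Mix1. For CENPH strong IR and Mix1 were again lowest, but R and weak IR also lay below NC, at 0.757 and 0.800. CENPU of the CENP-O group had another pattern: with 31.9, 34.9, 32.1, 15.4 and 28.9 CPM, Mix1 lay with NC (0.906, 0.785 to 1.05) and strong IR alone was lower (0.482, 0.406 to 0.575).

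The histone-fold subunits of the inner kinetochore differed among themselves. CENPW counted 89.0 CPM in NC, 76.3 in R, 82.1 in weak IR, 51.6 in strong IR and 72.2 in Mix1, a strong IR ratio of 0.581 (0.525 to 0.642). Its partner CENPT, which binds the Ndc80 complex, counted 11.3, 12, 12.3, 11.2 and 13.0 CPM, a ratio of 0.991 (0.761 to 1.31). The interval of CENPT, from 69 UMIs in NC, was wide. CENPX, on chromosome 17 (82018702 to 82024107), was measured far more precisely, at 443, 451, 460, 411 and 451 CPM, and its ratio was 0.927 (0.889 to 0.967). CENPX was thus within 1.5-fold of NC in every population while most of its neighbours in the complex were not. Against all other genes its ratio in strong IR lay close to the median of 0.936.

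In the Mis12 complex all 4 genes were lower in strong IR, between 0.436 for DSN1 and 0.659 for PMF1. MIS12 itself counted 29.7 CPM in NC, 21.6 in R, 24.7 in weak IR, 13.1 in strong IR and 10.7 in Mix1. Its ratio was 0.443 (0.369 to 0.532) in strong IR and 0.360 (0.309 to 0.423) in Mix1, the lowest of all members in Mix1. PMF1 went the other way between these irradiated populations, with 39.3, 39.3, 37.8, 25.9 and 39.8 CPM, so that Mix1 was level with NC (1.01, 0.889 to 1.16). A read-through gene that shares PMF1 sequence, PMF1-BGLAP, held at most 0.211 CPM.

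All 4 genes of the Ndc80 complex, the main microtubule binder, were lower in strong IR, with a median ratio of 0.432. NDC80 counted 57.3 CPM in NC, 50.9 in R, 41.1 in weak IR, 19.9 in strong IR and 23.7 in Mix1. Its partner NUF2 counted 52.7, 59.2, 45.5, 23.7 and 24.7 CPM. SPC25, at the kinetochore end of the complex, counted 117, 107, 98.3, 48.6 and 48.9 CPM. The ratios of strong IR to NC were 0.347 (0.303 to 0.398) for NDC80, 0.449 (0.392 to 0.515) for NUF2 and 0.415 (0.379 to 0.455) for SPC25, and those of Mix1 were 0.413, 0.469 and 0.417. For these genes Mix1 lay close to strong IR.

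SKA1, which follows growing and shrinking microtubule ends, had a ratio of 0.401 (0.320 to 0.504) in strong IR, SKA3 had 0.430, ZWINT had 0.490 and SKA2 had 0.602. Of the corona genes, CENPF counted 425 CPM in NC, 405 in R, 334 in weak IR, 150 in strong IR and 173 in Mix1. CENPE counted 37.4, 35.5, 33, 14.2 and 18.6 CPM. Their ratios of strong IR to NC were 0.352 (0.335 to 0.370) and 0.381 (0.323 to 0.451).

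CENPJ, a centriole assembly protein that bears a CENP name but is no kinetochore subunit, had the lowest ratio of all. It counted 19.2 CPM in NC, 11.6 in R, 12 in weak IR, 5.09 in strong IR and 9.41 in Mix1. The ratio was 0.265 (0.206 to 0.343) in strong IR, and NC stood above every other population.

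Weak IR and R were close to NC. CENPJ was the only member lower by 1.5-fold in either, at 0.627 (0.513 to 0.772) in weak IR and 0.606 (0.432 to 0.842) in R, beside 0.539% and 2.6% of all genes lower. No member was higher in either, beside 1.39% and 2.47% of all genes. The median ratios were 0.885 and 0.912. In weak IR 14 of 33 intervals lay below 1, among them CENPF at 0.787 (0.755 to 0.820) and NDC80 at 0.717 (0.639 to 0.805), so that small differences were resolved where the counts were large. In R 6 did. R held 633 cells and its intervals were wider.

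Strong IR also stood below the other Mix2 populations. Against weak IR 27 members were lower, with a median ratio of 0.557, beside 10.3% of all genes; against R 26 were lower, with a median of 0.534, beside 11.2%. No member was higher in either, beside 7.04% and 8.91% of all genes. All 12 bound members were among those lower in both. Since strong IR is common to both comparisons and to that with NC, these counts do not add to each other as evidence. The lowest ratio was 0.413 for HJURP against weak IR and 0.370 for CENPF against R.

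Mix1 set beside NC gave 19 members lower and none higher, beside 9.68% of all genes lower and 7.36% higher, with a median ratio of 0.626. Library and treatment cannot be told apart in this comparison, and NC is shared with those above. Members at or near the NC level in Mix1 were CENPX (1.02), CENPB (1.05), PMF1 (1.01), CENPU (0.906), CENPQ (0.893) and CENPT (1.15). Of these 6, CENPU, CENPQ and PMF1 were lower by 1.5-fold in strong IR.

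By group, the 12 bound members were all lower in strong IR, beside 14.6% of all genes. Their summed level went from 978 CPM in NC to 387, a ratio of 0.396 (0.383 to 0.409). In Mix1 9 of the 12 were lower, beside 9.68% of all genes, with a summed ratio of 0.471 (0.458 to 0.483). Of the 9 constitutive members 8 were lower in strong IR, with a median ratio of 0.599, and 3 in Mix1. Their summed level went from 841 to 637 CPM, but CENPX alone made up much of it: without CENPX the other 8 summed to 398 CPM in NC, 362 in R, 364 in weak IR, 226 in strong IR and 278 in Mix1. The 12 unresolved members had a summed ratio of 0.558 (0.532 to 0.586) in strong IR. A constitutive call in NC and R was thus no sign of a level near NC in strong IR. Within strong IR, 8 of the 9 reached 1.5-fold over low cells in the S-high and 8 in the G2/M-high class.

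The makeup of the populations by index class differed as widely. Low cells were 19.7% (Clopper-Pearson 95% interval 17.0 to 22.7) of NC, 26.5% of R, 32.0% of weak IR, 79.8% (78.1 to 81.5) of strong IR and 59.3% (58.4 to 60.2) of Mix1. G2/M-high cells were 27.6%, 31.6%, 21.2%, 5.85% and 10.1%. S-high cells were 25.7%, 16.4%, 19.5%, 5.26% and 14.3%. All 30 G2/M and all 30 S index genes were themselves lower by 1.5-fold in strong IR than in NC, so the classes restate that difference as shares of cells. Cells under 3000 UMIs, left out here, were 9 of NC, 19 of R, 542 of weak IR, 29 of strong IR and 3626 of Mix1.

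**Figure D3:**
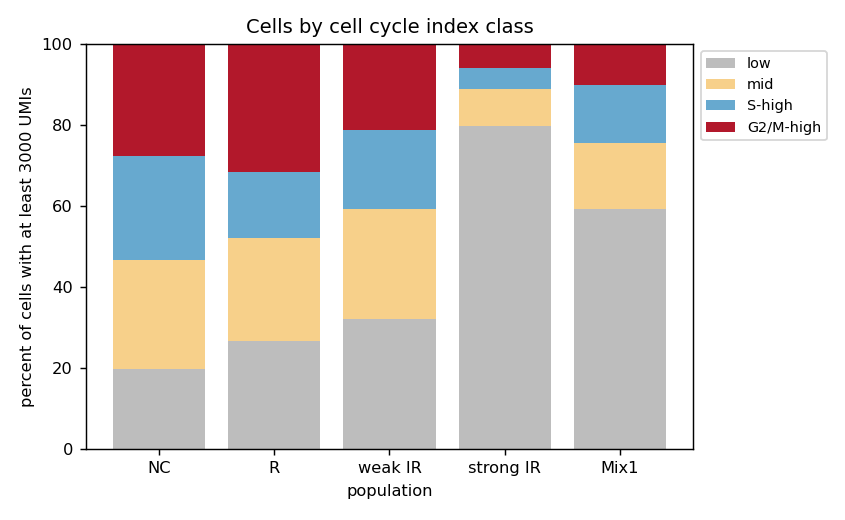
Share of cells in each index class, in percent of the cells with at least 3000 UMIs, in the 5 populations. Low cells make up 79.8% of strong IR and 59.3% of Mix1 against 19.7% of NC, and the G2/M-high share is smallest in strong IR at 5.85%.

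Set beside NC within a class, strong IR cells differed little where either index was high. Among G2/M-high cells the median ratio of the 33 members was 0.984, with 2 lower and none higher, beside 7.09% and 7.84% of all genes. Among S-high cells it was 0.979, with 1 lower and 1 higher, beside 10% and 9.17% of all genes. Among low cells it was 0.457, with 27 lower and 2 higher, beside 18.3% and 15.6%. A class fixes the level of the index genes, and genes that move with them are held near level by that choice. CENPF shows the pattern: it counted 668 CPM in the G2/M-high cells of strong IR and 715 in those of NC, 239 and 262 in S-high cells, and 78.7 and 200 in low cells.

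MIS12, CENPJ and CENPA were the exceptions in the high classes of strong IR. MIS12 stood at 0.642 (0.425 to 0.959) among G2/M-high cells of strong IR and at 0.433 (0.330 to 0.575) among those of Mix1. CENPJ stood at 0.577 (0.336 to 0.967) among G2/M-high and 0.322 (0.152 to 0.637) among S-high cells of strong IR, the latter from 12 and 34 UMIs. CENPA was higher, at 1.74 (1.02 to 3.06), among S-high cells of strong IR, from 42 and 22 UMIs. Among G2/M-high cells it stood at 1.38.

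The 2 members higher in the low cells of strong IR were CENPB, at 24.5 against 9.72 CPM (2.52, from 514 and 11 UMIs), and CENPT, at 10.2 against 6.19 CPM (1.65, from 215 and 7 UMIs). The counts in low NC cells were small, and the interval of CENPT held equality. CENPX counted 385 and 454 CPM there, a ratio of 0.847. Mix1 gave like values in low cells, with a median ratio of 0.509. There 24 members were lower and 2 higher, beside 17.5% and 14.3% of all genes. Among its S-high cells the median was 0.990 and members ran from 0.646 to 1.68. Among its G2/M-high cells the median was 1.05 and members ran from 0.433 to 1.61.

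**Figure D4:**
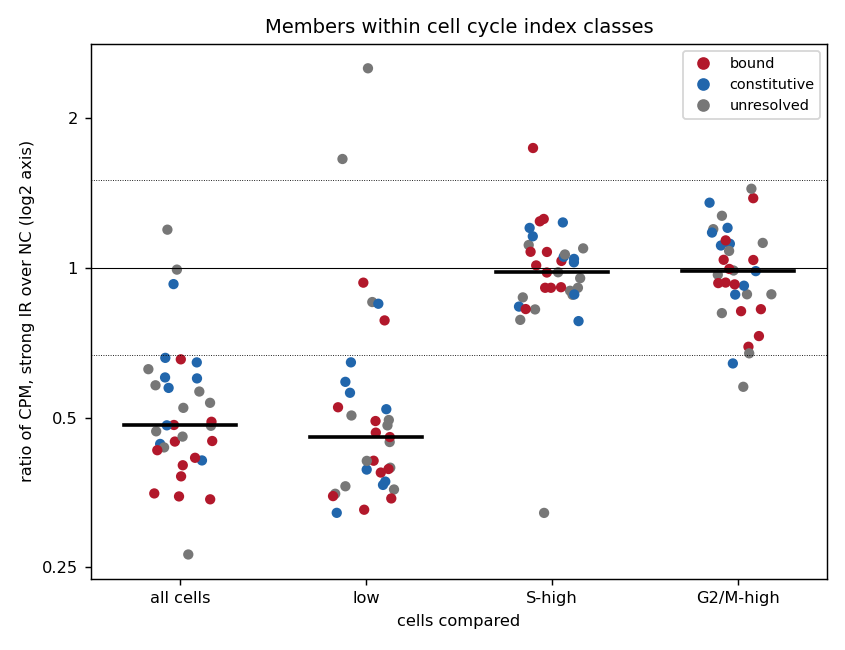
Ratio of CPM, strong IR over NC, of the 33 measured members over all cells and within the low, S-high and G2/M-high classes, on a log2 axis; each point is a member, the bar is the median and dotted lines mark 1.5-fold. The medians are 0.482, 0.457, 0.979 and 0.984, and the points of the S-high and G2/M-high classes centre on 1.

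With the classes weighted by their shares in NC, strong IR had 2 members lower than NC, CENPJ at 0.484 and DSN1 at 0.666, and a median ratio of 0.897 in place of 0.482. For Mix1 the count was 1, MIS12 at 0.455, and the median was 0.918. CENPA turned to 1.40 in strong IR under this weighting. Strong IR then had no member lower than weak IR, with a median ratio of 0.957, and 1 lower than R, with a median of 0.939, in place of 27 and 26. The lower index counts in the low cells of the irradiated populations, given above, enter these values.

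The levels were also followed over the tag8 count in finer bins, with 3160, the limit between weak and strong IR, kept as a bin edge. In cells with 500 to 999, 1000 to 1999, 2000 to 3159, 3160 to 5999 and 6000 or more tag8 UMIs, the bound members summed to 752, 834, 824, 569 and 272 CPM. CENPX counted 455, 466, 453, 394 and 421 CPM, and the other 8 constitutive members summed to 356, 374, 350, 266 and 201 CPM. CDKN1A counted 255, 232, 336, 728 and 1038 CPM. The bound members thus lay between 752 and 834 CPM in the first 3 bins and lower in the last 2, where CDKN1A was higher. Cell depth moved with the tag as well, with medians of 5720, 7458.5, 9184, 11744 and 12017 UMIs, and its part in the result was not tested. CENPB was highest in the last bin, at 26.6 CPM against 17.3 to 18.8 in the others.

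**Figure D5:**
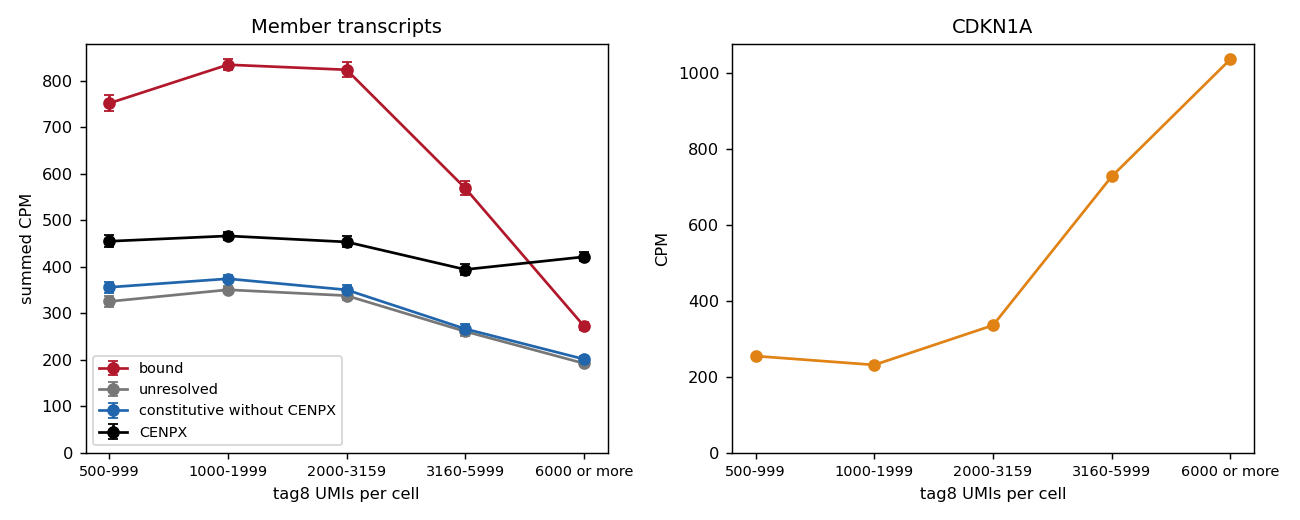
Summed CPM of the bound, the unresolved and the constitutive members other than CENPX, and the CPM of CENPX (left), and the CPM of CDKN1A (right), over 5 bins of tag8 UMIs per cell in the IR cells of Mix2, with 95% intervals for counting error on the left. The bound members end at 272 CPM and CDKN1A at 1038 CPM in the last bin, while CENPX lies between 394 and 466 CPM throughout.

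Per cell, strong IR held fewer cells rich in these transcripts. At 3000 UMIs per cell, 19.7% of NC cells held 5 or more UMIs of the 12 bound members, as did 19.1% of R, 14.8% of weak IR, 4.07% of strong IR and 6.74% of Mix1. Without thinning the shares were 60%, 56.4%, 50.5%, 34.1% and 33%. In the thinned cells past that limit the mean was 6.36 UMIs in NC, 6.34 in strong IR and 6.04 in Mix1. The limit of 5 itself holds these means close together. Thinned cells with at least 1 UMI of the bound members were 86.8% of NC, 48.7% of strong IR and 58.0% of Mix1. Such cells held means of 3.21, 2.15 and 2.44 UMIs. For the constitutive members the thinned shares with 5 or more UMIs were 11.6%, 11.2%, 12.2%, 7.32% and 10.5%. No cell type that lacks these genes was present to give a background share. RNA outside cells was sampled by Mix2 droplets of 1 to 100 UMIs. The members summed there to 1163 CPM, below every population, and CENPF to 149 CPM, close to its 150 CPM in strong IR. The bound members summed to 433 CPM there, above their 387 CPM in strong IR, and the unresolved members to 234 against 219 CPM. The constitutive members summed to 493 against 637 CPM. CENPC counted 23.2 CPM in these droplets against 14.4 in NC, and CENPT and CENPB were also higher there than in NC.

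Other genes of the same structure, taken from a list of 22 that holds none of the members, gave a similar picture. In strong IR 19 of them were lower than NC and none was higher, beside 14.6% and 10.1% of all genes, with a median ratio of 0.472. The lowest were KNTC1, a subunit of the RZZ complex, at 0.255 (0.192 to 0.338), the KNL1 scaffold at 0.337, the checkpoint kinase BUB1 at 0.341 and BUB1B, which encodes BubR1, at 0.357. The 3 within 1.5-fold of NC were CENPS, the histone-fold partner of CENP-X, at 0.714 (0.575 to 0.891), ZW10 of the RZZ complex at 0.691 and the checkpoint protein BUB3 at 0.669. CENPS shares sequence with the read-through gene CENPS-CORT, at 3.77 CPM in NC. In Mix1 18 of the 22 were lower, beside 9.68% of all genes. In weak IR and R 1 and 2 were, beside 0.539% and 2.6%.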

How the data were processed

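Single cells were profiled with the 10x Genomics 3′ kit in the 2 libraries Mix1 and Mix2. The authors aligned reads to GRCh38 with Cell Ranger (version 3.1.0 in the header of the Mix1 files and 3.0.1 in that of the Mix2 files) and deposited UMI counts per gene and cell, with counts of 3 hashtags in Mix2. The submitters' processing notes also name Seurat 2.3. Mix1 held 17019 barcodes and 159242469 gene UMIs, and Mix2 13888 and 107393576. The unfiltered Mix2 table held 6794880 barcodes, had 0 entries that differed from the filtered one, and was used only for droplets of 1 to 100 UMIs.

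Cells with at least 200 genes and under 10% mitochondrial UMIs were kept, 15630 in Mix1 and 11652 in Mix2. For the same filter, with a step on hashtags, the study states fewer cells in both libraries, fewer NC and IR cells and more R cells than used here, and the reason for the gap is not known. NC needed at least 374 tag6, R at least 104 tag7, weak IR 500 to 3159 tag8 and strong IR at least 3160 tag8 UMIs, with the own tag at 80% or more of the 3 tags; 1671 Mix2 cells fell in no population. Doublets were treated only by this tag rule, so those within a tag, and all in Mix1, remain. Counts were summed per population and divided by the population's total (CPM). Each population is 1 sample, so there is no test: differences are ratios of CPM with exact conditional binomial 95% intervals, levels and shares have exact Poisson and Clopper-Pearson ones, and a difference of 1.5-fold either way was counted over the 9284 genes with a mean of at least 5 CPM in Mix2. The ratio, thinning and class steps were tested on simulated data with known answers. Python 3.11.15, numpy 2.4.6, scipy 1.17.1, pandas 2.3.3, matplotlib 3.10.9, R 4.3.3 and edgeR 4.0.16 (TMM factors, as an alternative) were used. Gene positions are from GENCODE 44. The text names all 34 members, the 4 other kinetochore genes of the lowest ratios, and CDKN1A and MKI67 as a check; the 3 other kinetochore genes within 1.5-fold of NC, and the promoter motifs, were chosen after values were seen. The members, gene lists and classes were chosen with earlier results of these data known. Alternatives covered scaling, filters on cells and genes, tags, the fold limit, class limits and free RNA.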

Additional observations from a re-analysis of the deposited data

Results flagged for a closer look

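Mix2 droplets without cells, which enter no comparison above, held transcripts of the members. In 1467872 droplets of 1 to 100 UMIs, 3306 of 2842976 UMIs came from the members, a level of 1163 CPM (exact Poisson 95% interval 1124 to 1203). They are given because the members were counted in data outside the comparisons. How much of this RNA entered the cells' counts was not measured. The bound members made up 433 CPM and the constitutive members 493 CPM of this.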

How the results depend on the processing

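No paired analysis was possible because each population is 1 sample and no groups share replicates, and for the same reason no replicate could be left out. At a fold limit of 2 in place of 1.5, members lower numbered 19 in strong IR against NC, 0 in weak IR and 0 in R against NC, 9 in strong IR against weak IR, 14 against R and 10 in Mix1 against NC, and 7 members were bound. With the classes weighted as in NC the counts were 2 in strong IR, 0 in weak IR and 1 in R against NC, 0 in strong IR against weak IR, 1 in strong IR against R and 1 in Mix1 against NC. That weighting reversed CENPA in strong IR against NC (1.40). Against weak IR it reversed CENPA (1.08), OIP5 (1.11), CENPC (1.01), CENPN (1.01), CENPP (1.02), NDC80 (1.02), NUF2 (1.03) and SPC24 (1.08). Against R it reversed CENPA (1.11), CENPH (1.01), CENPN (1.04), SPC24 (1.06), SKA1 (1.05), ZWINT (1.07) and CENPE (1.07). With weak and strong IR pooled, an alternative chosen after seeing the data, 6 members were lower than NC. Filters that left few cells moved the small counts. Under 5% mitochondrial UMIs, with 172 NC and 31 R cells, 8 members were lower in weak IR and 12 passed the limit in R (11 lower, 1 higher), and CENPQ in strong IR against R turned to 1.37 while CENPC and CENPP, with 0 UMIs in R, gave no value. With the own tag at 95%, with 88 NC and 44 R cells, 5 were lower in weak IR, and R gave 5 past the limit (2 lower, 3 higher), so its direction turned. At 5000 UMIs per cell 2 were lower in R. With wider class limits 1 member, in place of 2, passed the limit in S-high cells. Bound members numbered 32 in Mix1 alone and 24 over Mix1, strong and weak IR, both chosen after seeing the data. Over NC and R, thinning to 5000 UMIs lost SKA1 and ZWINT. The first 15 genes of each index lost CENPK and ZWINT and gained SKA2. Leaving out the 5% of cells with most UMIs lost CENPC, SKA1 and SKA3. Equal weight per cell, without the interval, lost ZWINT and gained CENPB, CENPJ, CENPL and CENPO. Class limits at the 67th and 33rd percentiles gained CENPM, CENPO, CENPW and SKA2. TMM scaling gave 26 members lower in strong IR against NC and CPM without mitochondrial and ribosomal genes 27; neither turned a direction of these counts, nor did subtracting free RNA at 5% or 10%. Depth sets the width of the intervals behind a bound call: NC and R low cells held 18 and 17 UMIs of CENPA. The causes were not tested.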
